A study of Homo sapiens with 6 samples.

Results

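Interferon response and MHC class I antigen presentation genes were examined in NGP, an established human neuroblastoma cell line, with and without knockdown of CAMKV, which encodes a pseudokinase of the calmodulin-dependent kinase family. The 47 genes are a named list of interferon regulators, nucleic acid sensors, antiviral effectors and class I genes, and they were found by gene symbol among the 19868 entries of a table of read counts per gene. All 47 had an entry, 41 had a count in at least 1 library, and 33 passed edgeR's filterByExpr filter on low counts and were tested. There were 3 libraries from cells labelled sh-control, called Control here, and 3 from cells labelled sh-CAMKV, called CAMKV-KD, sh standing for short hairpin RNA. Both groups came from the same line grown in RPMI medium with fetal bovine serum and antibiotics, and the labels name no interferon, virus or other stimulus in either group. The labels do not say whether 1 or several hairpins were used, whether the cells were a clone or a pool, or whether the 3 libraries per group were grown as independent cultures, so the p-values rest on a spread between libraries that may be only technical. RNA was bulk RNA, in which fewer cells expressing a gene and less RNA per cell cannot be told apart.

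Interferons are secreted proteins that cells make when they sense foreign nucleic acid. RIG-I (DDX58) and MDA5 (IFIH1) sense viral RNA and signal through MAVS, STING (TMEM173) relays the sensing of cytosolic DNA, and both routes activate interferon regulatory factors. Interferon binding to its receptor activates JAK kinases and a complex that contains STAT2 and IRF9, which binds the interferon-stimulated response element (ISRE) of many antiviral genes, while interferon gamma acts mainly on the gamma-activated site (GAS) and through IRF1. MHC class I molecules, made of an HLA heavy chain and B2M, show peptides to CD8 T cells after the TAP transporter, tapasin (TAPBP) and the ERAP1 peptidase have supplied and trimmed them, and NLRC5 is a transcriptional activator of these genes. Neuroblastoma cells, those with MYCN amplification in particular, are known for low class I levels.

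Total counts per library ran from 20238281 to 24701564, so 3 counts in a library, used as the floor for a gene with no count, correspond to 0.121 to 0.145 CPM (the usual counts scaled to library size, here with edgeR's TMM factors, the unit of all levels below). CAMKV itself stood at 77.3 to 84.6 CPM in Control and at 23.2 to 25.4 CPM in CAMKV-KD, which checks the labels. All 9 markers of adrenergic neuroblastoma were detected, with a summed level of 1809 to 2743 CPM in Control and 1856 to 1991 CPM in CAMKV-KD. Behind this sum, 1 of the 9 was called higher and 4 lower in the fit described below, with log2 fold changes from −1.38 to 2.62. This is 55.6% called, against 36.3% of all tested genes. Among 12 leukocyte markers, CD3E, CD2, MS4A1, ITGAM and TYROBP had no count in any library, and the sum of all 12 was 0.964 to 1.62 CPM in Control and 0.669 to 1.26 CPM in CAMKV-KD. The summed level of 9 fibroblast and stromal markers was 420 to 445 CPM in Control and 637 to 653 CPM in CAMKV-KD, with FAP at 0. Of these, 8 were tested, 5 were called higher and 1 lower, which is 75% called, with log2 fold changes from −0.97 to 1.89. The sum of 7 endothelial markers was 26.2 to 29.2 CPM in Control against 32.8 to 35.9 CPM in CAMKV-KD. The 7 Schwann and glial markers, with SOX10 at 0, summed to 49.4 to 55.6 against 58.9 to 59.8 CPM, and 7 epithelial markers, with KRT18 at 0, to 3.63 to 5.05 against 5.41 to 9.45 CPM. Mitochondrially encoded genes held 1.67% to 1.90% of counts in Control and 2.70% to 2.92% in CAMKV-KD. The part of these marker and mitochondrial differences in the results that follow was not tested.

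Compared with Control, 13 of the 33 tested members were higher and 2 were lower in CAMKV-KD at an adjusted p below 0.05 in edgeR's quasi-likelihood F-test, with adjustment over all 13366 tested genes. The genes that rose were the transcription factors IRF1, IRF7 and IRF9, the sensors and adaptors DDX58, TMEM173 and MAVS, and the effectors SAMD9, IFITM1, IFITM2, IFITM3, IFIT3, OAS1 and EIF2AK2. The genes that fell were the effectors BST2 and IFI6. Among all tested genes, 36.3% were called in either direction, 17.3% higher and 19.0% lower. Among the tested members, 45.5% were called, 39.4% higher and 6.06% lower. The median log2 fold change was 0.16 over the tested members and 0.0045 over all tested genes. No member of the MHC class I group was called, and the members of the transcription factor and sensor groups that were called were all higher. The members were chosen with earlier results of these data known, and 1 of them, TMEM173, passed the filter through its CAMKV-KD libraries only, so these shares describe the list and carry no test.

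In 17 members every CAMKV-KD library lay above every Control library, and in 2 every one lay below, against 26.2% and 26.5% of all tested genes (52.8% in either direction). The 17 are the 13 genes called higher together with TRIM25, IFIT5, ADAR and IFI44L, which were not called. When each of the 6 libraries was left out in turn, 5 to 10 members were called higher and 2 lower. The calls of IRF1, IRF7, DDX58, SAMD9, IFITM3, BST2 and IFI6 were kept in all 6 of these fits, which is 7 of 15 called members (46.7%), while 3198 of the 4857 genes called over the whole table (65.8%) were kept. The count of members called higher was 6 without Control 1, 10 without Control 2, 8 without Control 3, 5 without CAMKV-KD 1, 8 without CAMKV-KD 2 and 7 without CAMKV-KD 3.

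**Figure D1:**
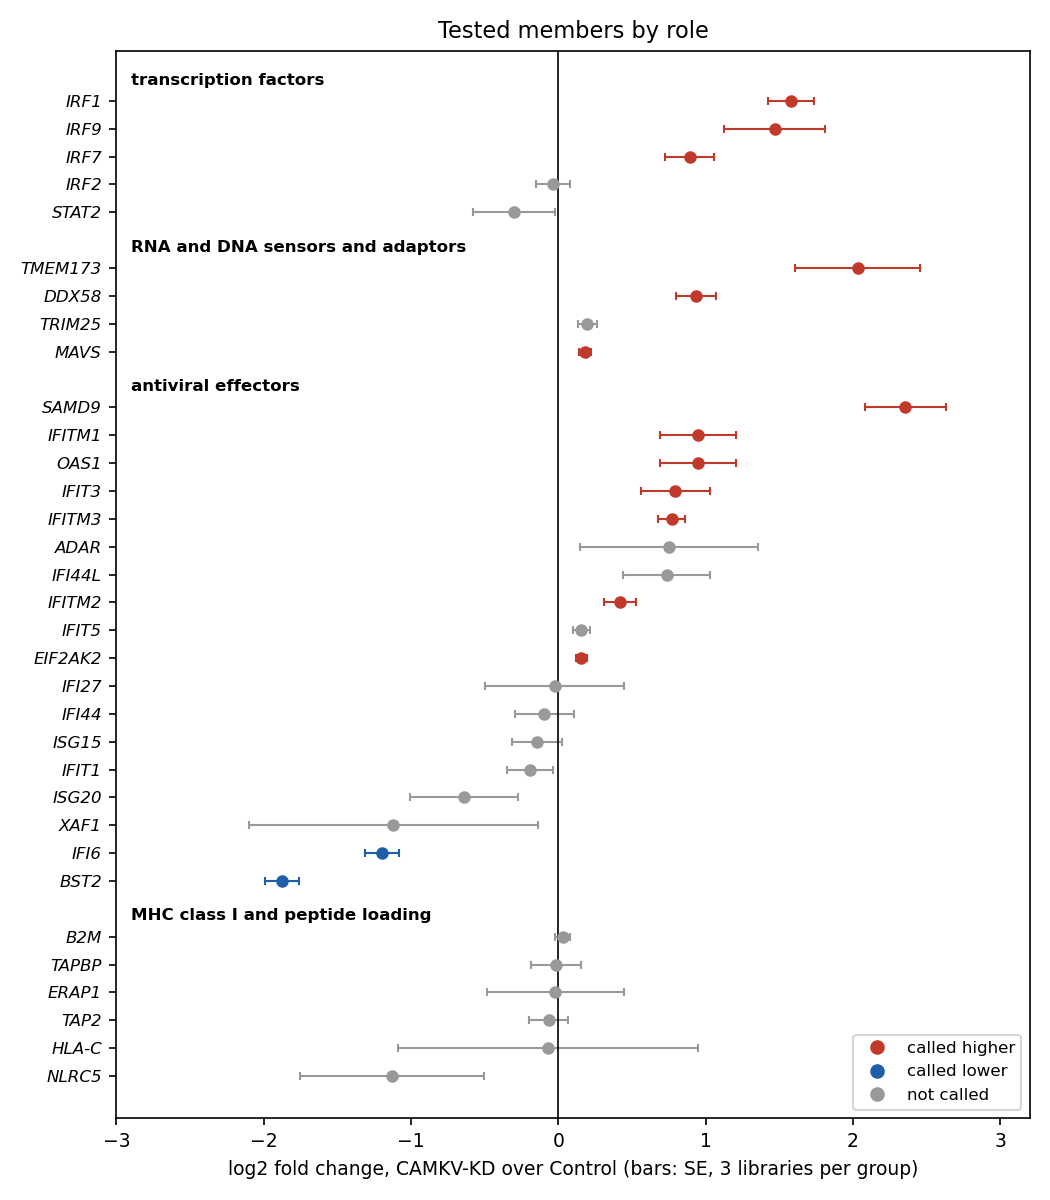
The log2 fold change (CAMKV-KD over Control) of the 33 tested members, grouped by role, with bars for the SE from 3 libraries per group; red marks genes called higher, blue genes called lower and grey genes not called. The called genes reach from −1.88 for BST2 to 2.35 for SAMD9, and the 6 class I members are all grey.

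Promoter sequence was read for the members from RefSeq (build GRCh38.p14), in windows of 250 bases before to 50 after the annotated start, and 38 of the 47 had an entry. The letters GAAANNGAAA, the core of the ISRE, were searched on both strands and were present in 25 of the 38 (65.8%), against 4.38% of the 27305 genes with a promoter entry. The letters TTCNNNGAA, the core of the GAS, were present in 10 of the 38 (26.3%), against 9.38% of those genes, and the 2 motifs can overlap, as they do in BST2. The members were listed as interferon response genes, so higher shares than over all genes may follow from that choice and carry no test. By result, the ISRE letters were in 5 of 10 members called higher, 2 of 2 called lower, 11 of 16 not called and 7 of 10 not tested. The GAS letters were in 4 of 10 members called higher, 1 of 2 called lower, 1 of 16 not called and 4 of 10 not tested, and neither split was tested. A match describes the letters in the window and is not evidence of binding.

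The 200 bases upstream of the start are shown for the 2 effectors with the ISRE letters whose rise was kept in every fit (SAMD9 and IFITM3), for the 2 that fell (BST2 and IFI6), for IRF1, which has the GAS letters only, and for B2M, which has the ISRE letters and was not called. They run 5′ to 3′ on the gene's strand, with motif letters in capitals, and lie at chr7:93117980-93118179 (minus strand) for SAMD9, chr11:320861-321060 (minus) for IFITM3, chr19:17405631-17405830 (minus) for BST2, chr1:27672193-27672392 (minus) for IFI6, chr5:132490774-132490973 (minus) for IRF1 and chr15:44711317-44711516 (plus) for B2M.
SAMD9: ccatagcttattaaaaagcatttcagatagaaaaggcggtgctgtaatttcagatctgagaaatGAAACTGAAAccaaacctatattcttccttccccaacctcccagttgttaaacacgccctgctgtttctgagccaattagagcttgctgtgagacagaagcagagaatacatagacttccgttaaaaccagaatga
IFITM3: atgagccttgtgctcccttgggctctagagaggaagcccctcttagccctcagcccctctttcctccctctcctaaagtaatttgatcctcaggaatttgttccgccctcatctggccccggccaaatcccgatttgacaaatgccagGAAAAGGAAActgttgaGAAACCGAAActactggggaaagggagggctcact
BST2: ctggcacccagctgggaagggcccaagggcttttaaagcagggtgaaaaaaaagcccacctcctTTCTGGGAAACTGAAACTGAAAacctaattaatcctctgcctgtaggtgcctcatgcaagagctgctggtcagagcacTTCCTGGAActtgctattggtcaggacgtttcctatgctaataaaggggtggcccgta
IFI6: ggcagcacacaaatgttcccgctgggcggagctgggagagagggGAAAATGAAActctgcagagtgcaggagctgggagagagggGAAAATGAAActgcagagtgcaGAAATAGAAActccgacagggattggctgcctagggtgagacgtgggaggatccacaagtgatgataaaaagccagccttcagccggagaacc
IRF1: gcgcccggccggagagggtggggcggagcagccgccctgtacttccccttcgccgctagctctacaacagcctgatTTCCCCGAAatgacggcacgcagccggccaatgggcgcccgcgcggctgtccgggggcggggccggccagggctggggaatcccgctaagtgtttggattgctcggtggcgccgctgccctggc
B2M: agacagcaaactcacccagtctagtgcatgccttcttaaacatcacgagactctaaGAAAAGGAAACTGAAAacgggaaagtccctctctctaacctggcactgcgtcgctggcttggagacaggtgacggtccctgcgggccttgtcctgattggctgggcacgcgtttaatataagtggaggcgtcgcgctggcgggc

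The first base of the ISRE letters is 136 bases upstream of the start in SAMD9, 52 and 35 in IFITM3, 130 and 124 in BST2, 156, 115 and 93 in IFI6, and 144 and 138 in B2M, each on the gene's own strand. The GAS letters begin 124 bases upstream in IRF1 and 136 and 58 in BST2. The promoters of SAMD9, which rose, of BST2 and IFI6, which fell, and of B2M, which was not called, all hold the ISRE letters, which were thus present in members of each kind.

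Of the 5 transcription factors, IRF1, IRF7 and IRF9 rose and STAT2 and IRF2 were not called. This is 60% higher and 0% lower, against 17.3% and 19.0% of all tested genes. IRF1 (chr5:132481609-132490798, minus strand, GENCODE 29 on GRCh38), an activator of interferon and class I genes, was at 1.78, 2.20 and 1.705 CPM in Control and at 5.94, 5.13 and 5.93 CPM in CAMKV-KD. All 3 CAMKV-KD libraries were above any Control library, with no overlap. IRF1 had a log2 fold change of 1.58 ± 0.15 (SE, n = 3 per group), or 2.99-fold, at an edgeR adjusted p of 0.00131, and it was 1.51 to 1.70 when a library was left out. Exons of C5orf56 and AC116366.3 on the opposite strand overlap IRF1 exons in the annotation, and since no source used here gives the strand setting of the counting, their reads cannot be told apart from those of IRF1. IRF7 (chr11:612553-615999, minus strand), the factor that amplifies interferon alpha production, was at 1.53, 1.47 and 1.75 CPM in Control and 2.505, 3.34 and 2.99 CPM in CAMKV-KD. These groups did not overlap either, and the log2 fold change of IRF7 was 0.89 ± 0.17 (SE) at an edgeR adjusted p of 0.0111.

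IRF9, the DNA-binding subunit of the interferon alpha and beta complex, was at 1.82, 2.25 and 2.56 CPM in Control and 5.37, 4.02 and 8.96 CPM in CAMKV-KD. The groups did not overlap, but the CAMKV-KD libraries were spread widely, with CAMKV-KD 3 the highest. IRF9 had a log2 fold change of 1.47 ± 0.34 (SE) at an edgeR adjusted p of 0.0232. It was called in 2 of the 6 fits with a library left out, with an adjusted p of 0.0189 without CAMKV-KD 2 and 0.0326 without CAMKV-KD 3, and it missed the threshold when Control 1, 2 or 3 was left out (0.075, 0.0702 and 0.0545) and without CAMKV-KD 1 (0.0516). IRF9 shares a locus in the deposited table with RNF31 and a gene named after an RP11 clone, so its reads may be divided with theirs. RNF31 had 1136, 901 and 941 counts in Control and 1074, 858 and 1062 in CAMKV-KD, against 44, 49 and 57 and then 133, 83 and 201 for IRF9. The clone-named gene had 94, 175 and 152 counts in Control and 281, 265 and 91 in CAMKV-KD. Exons of AL136295.5 overlap 1838 of the 3794 IRF9 exon bases on the same strand. The part that a division of reads among these genes had in the rise of IRF9 was not tested.

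STAT2, the partner of IRF9 in that complex, was at 31.6, 30.2 and 18.3 CPM in Control and 27.5, 16.9 and 20.6 CPM in CAMKV-KD. The groups overlapped, and the log2 fold change of STAT2 was −0.30 ± 0.28 (SE) at an edgeR adjusted p of 0.457. IRF2, an antagonist of IRF1, was at 15.4, 12.7 and 13.5 CPM in Control and 13.5, 14.7 and 12.4 CPM in CAMKV-KD. These also overlapped, and its log2 fold change was −0.03 ± 0.11 (SE) at an edgeR adjusted p of 0.849 and a change of sign when libraries were scaled by their totals (0.03), without Control 1 (0.05) and without CAMKV-KD 3 (0.02).

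**Figure D2:**
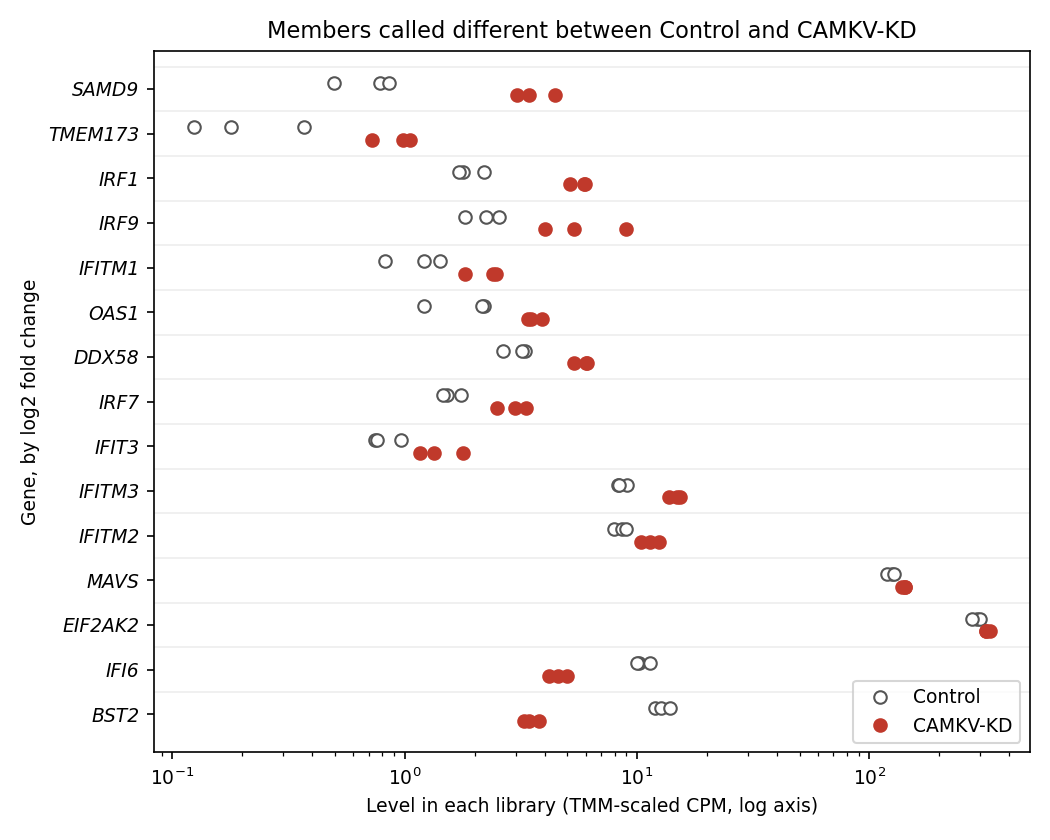
The level of the 15 called members in each of the 6 libraries (TMM-scaled CPM on a log axis), with open points for Control and red points for CAMKV-KD, ordered by log2 fold change. The 2 sets of points do not overlap for any of the 15 genes, and the gap between them is widest for SAMD9 at the top and BST2 at the bottom.

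Of the 5 sensors and adaptors, DDX58, TMEM173 and MAVS rose, TRIM25 was not called, and IFIH1 had no count in any library. Of the 4 tested, 75% were higher and 0% lower, against 17.3% and 19.0% of all tested genes. DDX58 (chr9:32455705-32526324, minus strand), which encodes the RNA sensor RIG-I, was at 3.31, 2.66 and 3.19 CPM in Control and 6.10, 5.38 and 6.02 CPM in CAMKV-KD. Every CAMKV-KD library lay above every Control library, with little spread inside either group. DDX58 had a log2 fold change of 0.93 ± 0.14 (SE), or 1.91-fold, at an edgeR adjusted p of 0.00466, and it was 0.84 to 0.99 when a library was left out. IFIH1, the other cytosolic sensor of viral RNA, was at 0 in all 6 libraries, which at this depth allows up to 0.121 to 0.145 CPM.

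TMEM173, which encodes the DNA-sensing adaptor STING, had few counts, with 3, 8 and 4 in Control and 26, 15 and 22 in CAMKV-KD. These correspond to 0.124, 0.367 and 0.180 CPM and to 1.05, 0.726 and 0.981 CPM, so the groups did not overlap, while the Control libraries stood close to the floor of 3 counts. TMEM173 had a log2 fold change of 2.03 ± 0.42 (SE) at an edgeR adjusted p of 0.0161. It missed the threshold when Control 3 (0.0596), CAMKV-KD 1 (0.0555) or CAMKV-KD 3 (0.0528) was dropped. MAVS, the mitochondrial adaptor of RIG-I, was at 125, 119 and 128 CPM in Control and 142, 143 and 138 CPM in CAMKV-KD. The groups were separate but close, and the log2 fold change of MAVS was 0.18 ± 0.041 (SE) at an edgeR adjusted p of 0.0201. The call of MAVS was lost when Control 1 (0.0534), CAMKV-KD 1 (0.0702) or CAMKV-KD 2 (0.0667) was dropped. TRIM25, the ubiquitin ligase that acts on RIG-I, was at 36.6 to 40.4 CPM in Control and 42.5 to 46.3 CPM in CAMKV-KD, with a log2 fold change of 0.195 ± 0.064 (SE) at an edgeR adjusted p of 0.0667. It was called with the DESeq2 Wald test and with scaling by library totals.

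Of the 29 antiviral effectors, 18 were tested, 7 rose, 2 fell and 9 were not called. This is 38.9% higher and 11.1% lower, against 17.3% and 19.0% of all tested genes. SAMD9 (chr7:93099513-93118023, minus strand), an interferon-inducible factor that restricts poxviruses, had the largest log2 fold change among the tested members. It was at 0.496, 0.780 and 0.853 CPM in Control and 4.44, 3.44 and 3.03 CPM in CAMKV-KD, or 12, 17 and 19 counts against 110, 71 and 68. The lowest CAMKV-KD library was well above the highest Control library. SAMD9 had a log2 fold change of 2.35 ± 0.27 (SE), or 5.11-fold, at an edgeR adjusted p of 0.0023, and it was 2.15 to 2.51 when a library was left out. Its neighbour and paralog SAMD9L (chr7:93130055-93148369, minus strand) had 4 counts in all, 2 in Control 2 and 2 in CAMKV-KD 2, and was not tested.

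BST2 (chr19:17402939-17405648, minus strand), which encodes tetherin, the membrane protein that holds budding virus particles at the cell surface, moved the other way. It was at 11.9, 12.7 and 13.9 CPM in Control and 3.43, 3.78 and 3.25 CPM in CAMKV-KD. All CAMKV-KD libraries were below all Control libraries, and 27.2% of the Control mean remained. BST2 fell by 1.88 ± 0.12 (SE) on the log2 scale at an edgeR adjusted p of 0.000357. IFI6 (chr1:27666061-27672218, minus strand), an interferon-induced antiviral protein of the endoplasmic reticulum and mitochondria, was at 10.2, 9.96 and 11.3 CPM in Control and 4.57, 4.16 and 4.99 CPM in CAMKV-KD. Here too the groups did not overlap, and 43.6% of the Control mean remained. IFI6 fell by 1.20 ± 0.12 (SE) on the log2 scale at an edgeR adjusted p of 0.0013. Both falls were called in each of the 6 fits with a library left out and in each of the 8 other alternatives.

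The IFITM genes encode small membrane proteins that block fusion of viruses with endosomes, and all 3 measured here rose. IFITM3 (chr11:319669-327537, minus strand) was at 8.30, 9.09 and 8.39 CPM in Control and 15.2, 14.9 and 13.8 CPM in CAMKV-KD. The CAMKV-KD libraries were all above the Control libraries, and the log2 fold change of IFITM3 was 0.77 ± 0.089 (SE), or 1.70-fold, at an edgeR adjusted p of 0.00223. Exons of AC136475.5 on the opposite strand overlap 287 of the 1348 IFITM3 exon bases. IFITM2 was at 7.97, 8.63 and 8.93 CPM in Control and 12.4, 10.4 and 11.4 CPM in CAMKV-KD, with a log2 fold change of 0.42 ± 0.11 (SE) at an edgeR adjusted p of 0.03145. IFITM1 was at 0.826, 1.42 and 1.21 CPM in Control and 1.82, 2.47 and 2.41 CPM in CAMKV-KD, with a log2 fold change of 0.95 ± 0.26 (SE) at an edgeR adjusted p of 0.0375. Neither pair of groups overlapped. IFITM1 and IFITM2 share a locus in the table, their annotated exons overlap on the same strand, and the 3 genes are close in sequence, so how reads were divided among them is uncertain. When a library was left out, IFITM1 was called only without Control 2 (adjusted p of 0.0456) and IFITM2 only without CAMKV-KD 2 (0.0383). Across the other 5 fits the adjusted p was 0.0511 to 0.104 for IFITM1 and 0.0599 to 0.0945 for IFITM2.

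OAS1, which makes the oligoadenylate messenger that activates RNase L, was at 2.19, 2.16 and 1.21 CPM in Control and 3.88, 3.49 and 3.39 CPM in CAMKV-KD. Control 3 was low, and every CAMKV-KD library was above every Control library. OAS1 had a log2 fold change of 0.95 ± 0.26 (SE) at an edgeR adjusted p of 0.0375. With a library left out it was called only without Control 3, the low one, with a log2 fold change of 0.72 and an adjusted p of 0.0271, and in the other 5 fits the adjusted p was 0.0588 to 0.104. IFIT3, a partner of the IFIT proteins that bind foreign RNA ends, was at 0.744, 0.964 and 0.763 CPM in Control and 1.78, 1.16 and 1.34 CPM in CAMKV-KD. The groups did not overlap, the log2 fold change of IFIT3 was 0.79 ± 0.23 (SE), and the adjusted p of 0.0487 in edgeR was just inside the threshold. IFIT3 was called in none of the 6 fits with a library left out, where its adjusted p ran from 0.0557 without CAMKV-KD 2 to 0.134 without Control 1, and it was not called by DESeq2 or limma-voom. EIF2AK2, which encodes PKR, the kinase that stops translation on sensing double-stranded RNA, was at 290.6, 298.5 and 277.5 CPM in Control and 318.1, 316.8 and 330.0 CPM in CAMKV-KD. The groups were separate, with a log2 fold change of 0.155 ± 0.038 (SE) at an edgeR adjusted p of 0.0274, and the call was kept only without Control 2 (0.0316), against 0.0543 to 0.0763 in the other 5 fits.

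**Figure D3:**
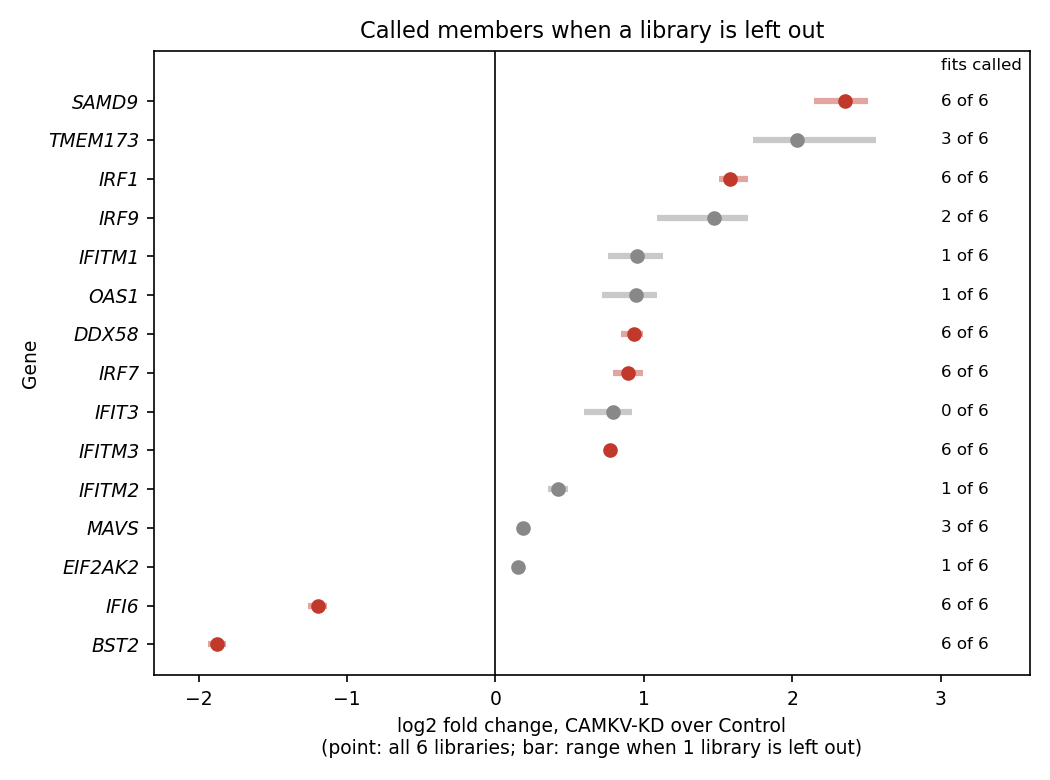
The log2 fold change of the 15 called members with all 6 libraries (points) and its range when 1 library is left out (bars), with the number of those 6 fits in which the gene was called at the right. Red marks the 7 genes called in all 6 fits; no range crosses 0, and IFIT3 was called in none of the 6.

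The 9 tested effectors that were not called were IFIT1, IFIT5, ISG15, ISG20, ADAR, XAF1, IFI27, IFI44 and IFI44L, with log2 fold changes from −1.12 for XAF1 to 0.75 for ADAR. ADAR, which edits adenosine to inosine in double-stranded RNA, was at 358.6, 71.9 and 380.1 CPM in Control and 487, 444 and 435 CPM in CAMKV-KD. Control 2 was far below the other 5 libraries, and no CAMKV-KD library was below any Control library. ADAR had a log2 fold change of 0.75 ± 0.60 (SE) at an edgeR adjusted p of 0.388. Without Control 2 it was 0.30 with an adjusted p of 0.0323, and over the 6 fits it ran from 0.30 to 1.08. ISG15, the ubiquitin-like modifier induced early by interferon, was at 7.31, 5.55 and 5.29 CPM in Control and 5.21, 5.09 and 6.11 CPM in CAMKV-KD. The groups overlapped, with a log2 fold change of −0.15 ± 0.17 (SE), an adjusted p of 0.553 in edgeR and a value of 0.01 without Control 1. IFIT1, which binds RNA lacking the host cap methylation, was at 2.60 to 3.30 CPM in Control and 2.32 to 2.86 CPM in CAMKV-KD, with a log2 fold change of −0.19 ± 0.15 (SE) at an edgeR adjusted p of 0.386.

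IFIT5 was at 50.4 to 56.0 CPM in Control and 57.4 to 59.1 CPM in CAMKV-KD, with a log2 fold change of 0.16 ± 0.057 (SE) at an edgeR adjusted p of 0.0864. It was called without Control 3 (log2 fold change of 0.205, adjusted p of 0.0387) and with scaling by library totals. IFI44L was at 0.853 to 1.70 CPM in Control and 2.22 to 2.63 CPM in CAMKV-KD, with a log2 fold change of 0.74 ± 0.30 (SE) at an edgeR adjusted p of 0.113. Its neighbour IFI44 was at 3.18 to 3.44 CPM in Control and 2.52 to 3.97 CPM in CAMKV-KD, so the Control range lay inside the CAMKV-KD range. ISG20, an exonuclease that degrades single-stranded RNA, was at 1.15 to 2.47 CPM in Control and 0.929 to 1.60 CPM in CAMKV-KD, and its groups overlapped. XAF1 and IFI27 were at 0 to 1.26 and 0.454 to 1.29 CPM over the 6 libraries, near the floor in some, and their groups overlapped as well.

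The remaining 11 effectors were not tested. MX1, MX2, OAS2 and DTX3L had no count in any library, which allows at most 3 counts per library. The other 7 had few counts summed over the 6 libraries, with 44 for IFI35, 37 for IFIT2, 10 for PARP9, 7 for OAS3, 5 each for OASL and PARP14 and 4 for SAMD9L. IFIT2, which lies beside IFIT1 and IFIT3 on chromosome 10, had 0, 6 and 3 counts in Control and 6, 12 and 10 in CAMKV-KD, so the groups touched at 6. MX1 and MX2, the dynamin-like GTPases often used as readouts of interferon signalling, gave no counts in either group.

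**Figure D4:**
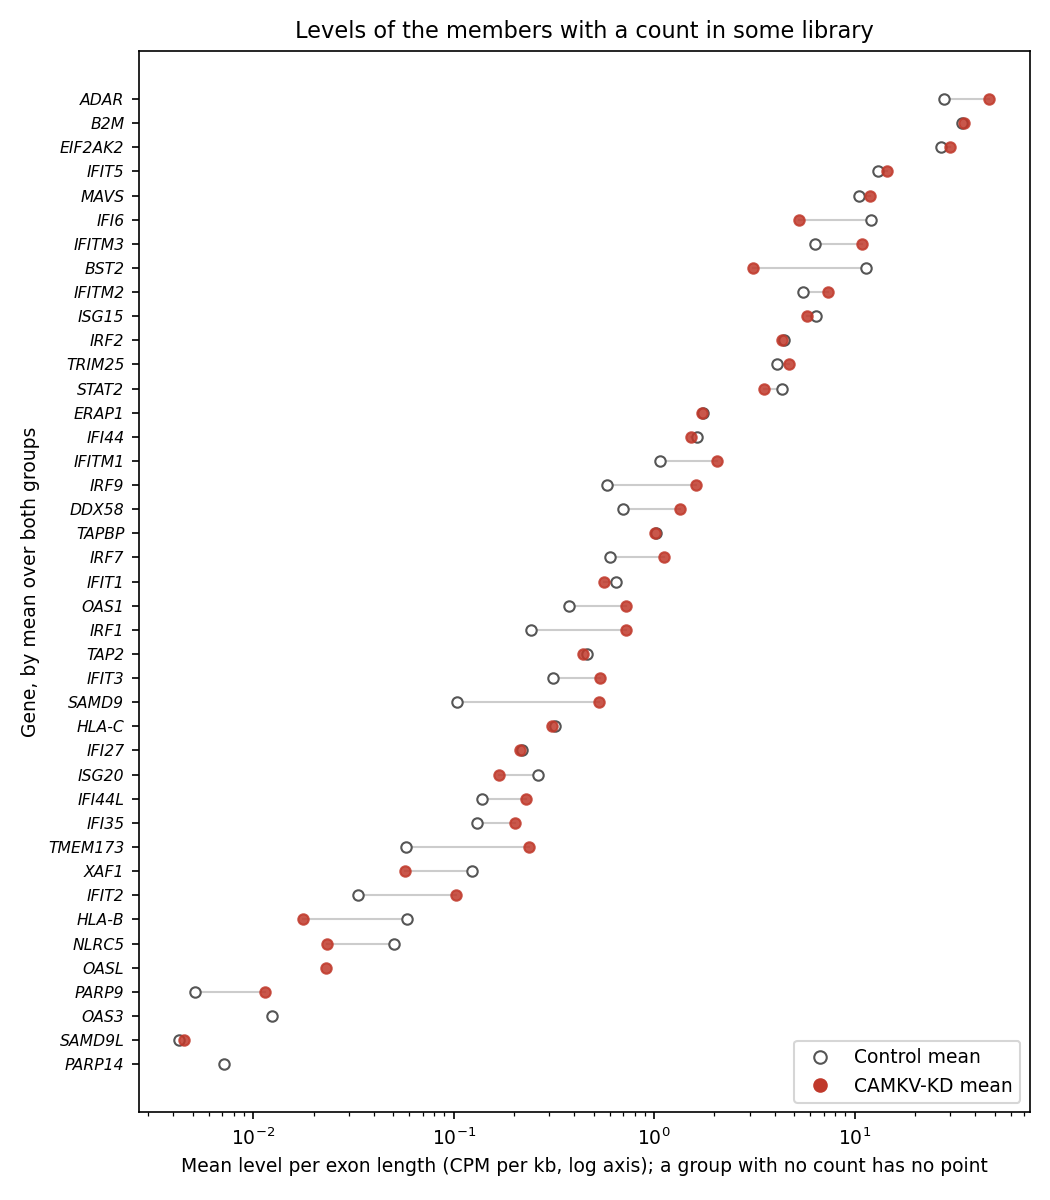
Mean level of the 41 members with a count in some library, divided by the length of all annotated exons (CPM per kb, log axis), with open points for Control and red points for CAMKV-KD; a group with no count has no point. The levels span from 0.00356 for PARP14 to 37.4 for ADAR as the mean of both groups, and the called members span from 0.148 for TMEM173 to 28.4 for EIF2AK2. Members that were not tested, most of them at low levels, could not be called.

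Per exon length, the members with the highest mean level over both groups were ADAR at 37.4 CPM per kb, B2M at 34.8, EIF2AK2 at 28.4, IFIT5 at 13.8 and MAVS at 11.3. The lengths are unions of all annotated exons in GENCODE 29 and so differ from the transcripts made in these cells. In Control, BST2 at 11.5 and IFI6 at 12.1 CPM per kb had higher means than IFITM3 at 6.38, while in CAMKV-KD IFITM3 at 10.9 CPM per kb had a higher mean than IFI6 at 5.29 and BST2 at 3.12. Of the 18 members with a mean level above 1 and up to 10 CPM, 11 were called, against 1 of 6 above 10 and up to 100 CPM. Above 100 CPM 2 of 4 were called, and from above 0 to 1 CPM 1 of 5 tested. Over all tested genes 36.3% were called, and that share was not split by level.

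Of the 8 MHC class I and peptide loading members, 6 were tested and none was called, with a median log2 fold change of −0.04. This is 0% called, against 36.3% of all tested genes. The SEs of HLA-C, NLRC5 and ERAP1 were wide (1.02, 0.62 and 0.47), so the lack of a call does not show that their levels were unchanged. B2M (chr15:44711487-44718877, plus strand), the invariant light chain, was at 206, 215 and 207 CPM in Control and 204, 210.1 and 226 CPM in CAMKV-KD. The groups overlapped, and the log2 fold change of B2M was 0.03 ± 0.048 (SE) at an edgeR adjusted p of 0.69 and a value of −0.02 without CAMKV-KD 3. HLA-B had 3, 5 and 4 counts in Control and 4, 0 and 0 in CAMKV-KD and was not tested. HLA-C had 27, 0 and 29 counts in Control and 16, 17 and 19 in CAMKV-KD. Control 2 had no count of HLA-C while the other Control libraries were above all CAMKV-KD libraries, and the log2 fold change was −0.07 ± 1.02 (SE) at an edgeR adjusted p of 0.967. Without Control 2 the log2 fold change of HLA-C was −0.64, and it was 0.24 without Control 1, 0.44 without Control 3 and 0.04 without CAMKV-KD 1. Class I heavy chain genes are near-identical and highly variable between people, so how reads were divided among them, and their levels, are uncertain.

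TAP1 had no count in any library, which allows up to 0.121 to 0.145 CPM, while TAP2, the other subunit of the peptide transporter, was at 3.18, 3.12 and 2.60 CPM in Control and 2.95, 2.76 and 2.81 CPM in CAMKV-KD. The TAP2 groups overlapped, with a log2 fold change of −0.06 ± 0.13 (SE) at an edgeR adjusted p of 0.760. Exons of AL669918.1 overlap 2064 of the 6390 TAP2 exon bases on the same strand, so reads of TAP2 may include those of AL669918.1. TAPBP, which encodes tapasin, was at 5.70, 4.96 and 4.80 CPM in Control and 6.14, 4.79 and 4.37 CPM in CAMKV-KD. Its groups overlapped, with a log2 fold change of −0.01 ± 0.17 (SE) at an edgeR adjusted p of 0.961. ERAP1, the peptidase that trims peptides for class I, was at 15.45, 13.6 and 12.65 CPM in Control and 16.65, 5.38 and 19.1 CPM in CAMKV-KD. CAMKV-KD 2 was low and the other CAMKV-KD libraries were above all Control libraries, so the log2 fold change was −0.02 ± 0.47 (SE) at an edgeR adjusted p of 0.980 and a value of 0.36 without CAMKV-KD 2. NLRC5 had 15, 6 and 22 counts in Control and 5, 10 and 4 in CAMKV-KD, with overlapping groups, a log2 fold change of −1.13 ± 0.62 (SE) at an edgeR adjusted p of 0.218.

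**Figure D5:**
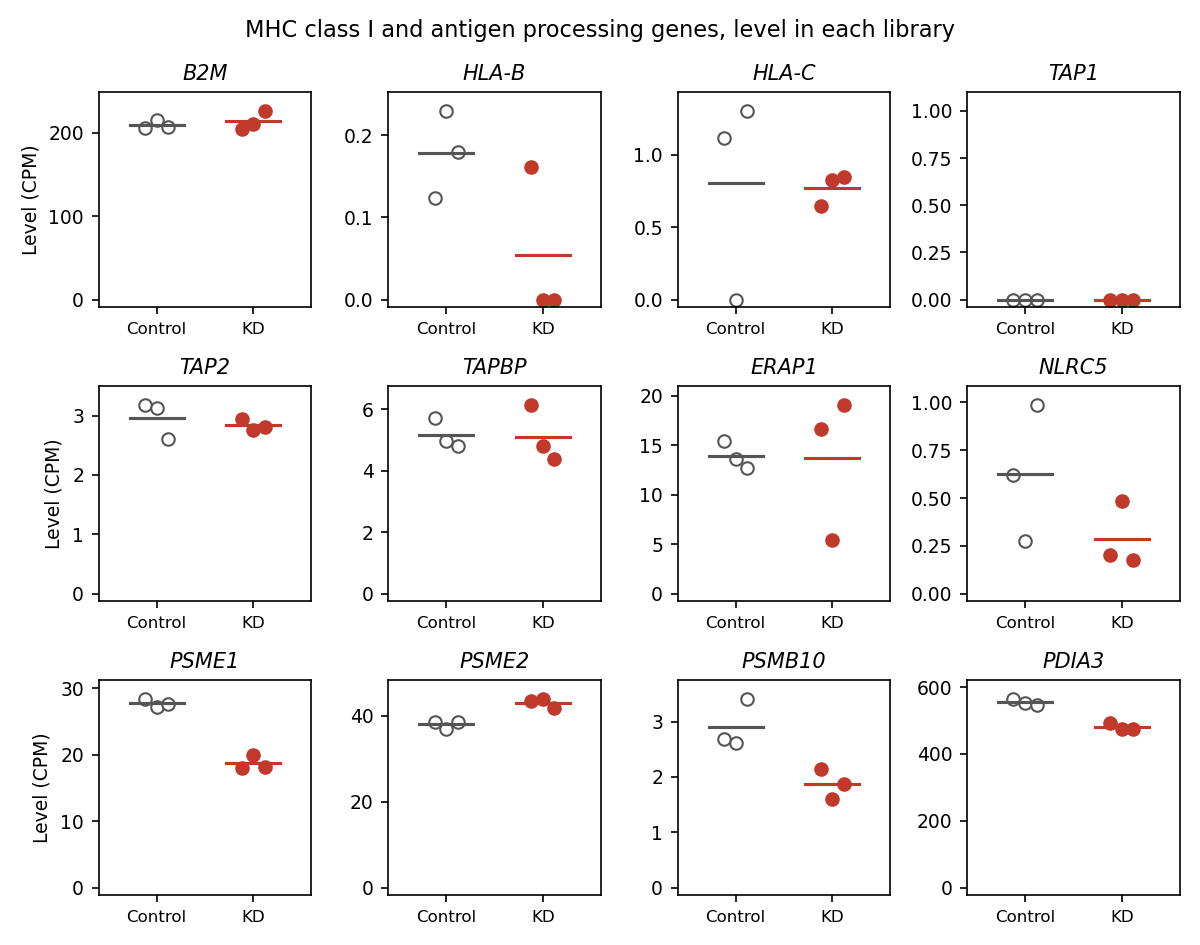
Level in each library (TMM-scaled CPM, linear axes from 0 with a scale of their own) of class I and antigen processing genes, with open points for Control, red points for CAMKV-KD (KD) and lines for group means; PSME1, PSME2, PSMB10 and PDIA3 are from the wider list of antigen processing genes. The B2M groups overlap, PSME1 and PDIA3 have separate groups with CAMKV-KD below, and TAP1 is at 0 throughout.

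Among 16 other class I antigen processing genes, 11 were tested, 2 rose and 4 fell. This is 18.2% higher and 36.4% lower, against 17.3% and 19.0% of all tested genes. PSME1, a subunit of the interferon-inducible PA28 proteasome activator, fell from between 27.2 and 28.4 CPM in Control to between 18.1 and 19.9 CPM in CAMKV-KD, a log2 fold change of −0.57 ± 0.069 (SE) at an edgeR adjusted p of 0.00258. PDIA3, the ERp57 chaperone of the peptide loading complex, fell from between 545 and 565 CPM in Control to between 474 and 491.5 CPM in CAMKV-KD, a log2 fold change of −0.21 ± 0.027 (SE) at an edgeR adjusted p of 0.00326. The log2 fold change was −0.63 for PSMB10, an immunoproteasome subunit, 0.75 for TAPBPL, a tapasin relative, and 0.18 for PSME2, the partner of PSME1, with adjusted p-values in edgeR of 0.0473, 0.0447 and 0.0399. None of these last 3 was called in any of the 6 fits with a library left out, where the lowest adjusted p-values were 0.0644 without CAMKV-KD 1 for PSMB10, 0.0607 without Control 3 for TAPBPL and 0.0655 without CAMKV-KD 3 for PSME2. PSMB10 shares a locus in the deposited table with CTRL and a clone-named gene, and TAPBPL shares one with CD27. How reads were divided there is uncertain.

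The interferons themselves gave almost no counts. Of 21 interferon genes listed, covering the alpha family, IFNB1, IFNG and the lambda family among others, 20 had no count in any library. The exception, named after its values were seen, was IFNA5 with 3 counts in Control 3. Of 21 receptor and JAK-STAT genes, 20 were tested, 5 rose and 2 fell, with a median log2 fold change of 0.04. In all 35% were called, near the 36.3% of all tested genes. SOCS3, a feedback inhibitor of JAK signalling, was at 2.23, 2.25 and 2.38 CPM in Control and 5.41, 6.295 and 5.93 CPM in CAMKV-KD, without overlap. Its log2 fold change was 1.36 ± 0.12 (SE) at an edgeR adjusted p of 0.000853. The call of SOCS3 was kept in all 6 fits with a library left out.

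TYK2, a JAK kinase of the interferon alpha receptor, was at 13.8, 10.65 and 12.9 CPM in Control and 51.3, 19.1 and 52.7 CPM in CAMKV-KD. CAMKV-KD 2 was far below the other CAMKV-KD libraries, and the log2 fold change of 1.72 ± 0.41 (SE, adjusted p of 0.0259 in edgeR) was called with a library left out only without CAMKV-KD 2 (0.00267), against 0.0691 to 0.0842 in the other 5 fits. The log2 fold changes of STAT3 at 0.51, PTPN2, a phosphatase of JAKs and STATs, at 0.41 and PTPN11 at −0.19 had adjusted p-values in edgeR of 0.0431, 0.0347 and 0.0406. Each of these was called in 1 of the 6 fits, STAT3 without Control 2 (0.0437), PTPN2 without CAMKV-KD 2 (0.0416) and PTPN11 without CAMKV-KD 2 (0.049). Of the receptor chains, IFNAR1 was at 66.9 to 72.5 CPM in Control and 78.2 to 81.8 CPM in CAMKV-KD, with a log2 fold change of 0.21 ± 0.047 (SE) at an edgeR adjusted p of 0.0191. With a library left out, IFNAR1 was called only without Control 1 (0.0259) and without CAMKV-KD 3 (0.041). IFNAR2, which shares a locus with IL10RB and AP000295.9, was at 7.72 to 20.1 CPM in Control and 4.06 to 12.9 CPM in CAMKV-KD, IFNGR1 at 16.6 to 36.8 and 24.4 to 39.3 CPM, and IFNGR2 at 39.0 to 43.6 and 41.2 to 43.1 CPM, with overlapping groups in all 3 and no call.

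Of 26 other nucleic acid sensing genes, 16 were tested, 7 rose and none fell, with a median log2 fold change of 0.25. The 7 are 43.8% of those tested, against 36.3% of all tested genes called and 17.3% called higher. IFI16, a nuclear DNA sensor, was at 1.86, 2.29 and 1.39 CPM in Control and 5.05, 5.57 and 6.37 CPM in CAMKV-KD, without overlap, and its log2 fold change was 1.61 ± 0.22 (SE) at an edgeR adjusted p of 0.00388. RNF135, a ubiquitin ligase of RIG-I, had a log2 fold change of 1.09 ± 0.20 (SE) at an edgeR adjusted p of 0.011. RNASEH2C, a subunit of the RNase H2 complex that removes RNA from DNA, was at 26.2 to 27.3 CPM in Control and 46.95 to 49.5 CPM in CAMKV-KD, with a log2 fold change of 0.84 ± 0.051 (SE) at an edgeR adjusted p of 0.00035. IKBKE, a kinase that activates IRF3 and IRF7, had a log2 fold change of 0.91 ± 0.24 (SE) at an edgeR adjusted p of 0.0343, and was called with a library left out only without Control 1 (0.0125).

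Of 49 other interferon-induced genes, 24 were tested, 5 rose and 3 fell, with a median log2 fold change of 0.15. In all 33.3% were called, below the 36.3% of all tested genes. TRANK1 was at 0.620, 1.10 and 1.17 CPM in Control and 4.20, 4.02 and 4.77 CPM in CAMKV-KD, and GBP4, a guanylate-binding protein, at 5.95, 6.84 and 6.51 and then 19.15, 19.95 and 18.5 CPM. Their groups did not overlap, and their log2 fold changes were 2.17 ± 0.27 and 1.58 ± 0.091 (SE), with adjusted p-values in edgeR of 0.00278 and 0.000311. CMPK2, a mitochondrial nucleotide kinase, had a log2 fold change of 0.42 ± 0.085 (SE, adjusted p of 0.0142 in edgeR), and APOL2 one of 0.36 ± 0.10 (SE, adjusted p of 0.0447), which was not called in any fit with a library left out (lowest adjusted p of 0.0562, without Control 3). The genes that fell were LGALS3BP, a secreted glycoprotein, UBE2L6, the conjugating enzyme of ISG15, and PML, the organiser of PML nuclear bodies. Their log2 fold changes were −0.75 ± 0.062, −0.50 ± 0.072 and −0.35 ± 0.061 (SE), with adjusted p-values in edgeR of 0.000805, 0.004635 and 0.00886.

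Of 22 genes of the NF-kappaB pathway, which is activated beside interferon signalling by the same sensors, 14 were tested, 4 rose and none fell. The 4 are 28.6% of those tested, against 36.3% of all tested genes called and 17.3% called higher. The log2 fold change was 0.97 ± 0.088 (SE) for the inhibitor NFKBIA, 0.72 ± 0.055 for the kinase IKBKB and 0.37 ± 0.055 for the subunit RELA, with adjusted p-values in edgeR of 0.00102, 0.000642 and 0.00506. NFKB1 was at 24.3, 22.9 and 12.4 CPM in Control and 38.6, 35.3 and 37.6 CPM in CAMKV-KD, and its log2 fold change of 0.90 ± 0.27 (SE, adjusted p of 0.0478 in edgeR) was called with a library left out only without Control 3 (0.65, adjusted p of 0.00728). Of 13 class II genes and regulators, 7 had no count, 4 were tested and RFX5, a factor that also binds class I promoters, rose by a log2 fold change of 0.20 ± 0.034 (SE, adjusted p of 0.00745 in edgeR). Of 15 ligands for T and NK cells, 8 were tested and 3 rose, with log2 fold changes of 2.17 ± 0.32 (SE) for ULBP1, a ligand of the NK receptor NKG2D, 0.90 ± 0.092 for CD47, which inhibits phagocytosis, and 0.80 ± 0.10 for CD58, the ligand of CD2. The adjusted p-values in edgeR were 0.00503 for ULBP1, 0.00153 for CD47 and 0.00303 for CD58. The share called was 25% of the tested class II genes and 37.5% of the tested ligands, against 36.3% of all tested genes.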

How the data were processed

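Read counts per gene in 6 NGP libraries (3 Control, 3 CAMKV-KD) were used as the authors deposited them, as whole-number counts without normalization. Per the labels' protocols, TRIzol was used for extraction and a SMARTer kit for the libraries. Per the submitters' processing notes, FastQC 0.11.2, HISAT2 2.1.0 and StringTie 1.3.5 were used with build GRCh38.p13, while the strand setting and counting rule are not stated there. Of the table's entries, 14082 carry a StringTie locus identifier and 5786 an Ensembl identifier; 63 shared a symbol with an entry of higher count and were not used for it.

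Counts were tested in R 4.3.3 with edgeR 4.0.16 (filterByExpr, TMM, glmQLFit and glmQLFTest, group as the only term, Benjamini-Hochberg adjustment over 13366 genes, threshold 0.05). SEs were derived from the F statistic (absolute log2 fold change over root F). Alternatives used limma 3.58.1, DESeq2 1.42.0, other scalings and filters, a replicate block, and each library left out in turn. Floors cover counting error only. The members and the wider lists were chosen with earlier results of these data known. Every called member and all regulators and class I members are named; of other lists, up to 4 called genes per direction and the 4 interferon receptor genes. Positions come from GENCODE 29 on GRCh38 and were matched by symbol. Exons of other genes also overlap those of further members, among them XAF1, OAS1, EIF2AK2 and ERAP1, and reads of these genes cannot be told apart there. The fit was tested on simulated data with 200 changed genes. Some genes counted in the lists are not reported here by name. No 2 libraries agreed within sampling noise, so all 6 were kept.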

Additional observations from a re-analysis of the deposited data

How the results depend on the processing

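The count of all called genes was 4857 as reported, 4590 to 5698 under the 7 other scalings, tests and filters, and 3854 to 3980 with a library left out. Correlations between the deviations of same-numbered libraries were −0.0097, −0.062 and −0.032. They gave no sign of pairing by number, but 3 libraries per group cannot exclude it, and the labels do not say. With the replicate number as a block, 3337 genes and 7 members higher were called. Members called higher were 15 with library totals, 12 or 13 under the other scalings, tests and filters, and 5 to 10 with a library left out; members called lower were 2 throughout. The median log2 fold change of tested members was 0.21 with library totals, where that of all genes was 0.06, and 0.14 to 0.21 with a library left out. The share of higher among all called genes was 47.8%, and 56.4% with library totals.

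Signs turned only for genes that were not called, and the cause was not tested. With library totals the log2 fold change was 0.025 for IRF2, 0.045 for TAPBP, 0.040 for ERAP1 and 0.034 for IFI27; with limma-voom it was 1.22 for HLA-C and 0.032 for IFI27; with the block it was 0.32 for HLA-C and 0.0088 for IFI27; with upper-quartile scaling it was −0.010 for IFNGR1. With a library left out the lowest and highest values were −0.0955 and 0.0477 for IRF2, −0.64 and 0.44 for HLA-C, −0.0163 and 0.0578 for B2M, −0.17 and 0.0855 for TAPBP, −0.33 and 0.36 for ERAP1, −0.275 and 0.19 for IFNGR1, −0.0108 and 0.0702 for IFNGR2, −0.23 and 0.0117 for ISG15, −0.40 and 0.24 for IFI27 and −0.30 and 0.0418 for IFI44. Genes near 3 counts per library, such as TMEM173, HLA-B and NLRC5, and genes with none are limited by depth, and TMEM173, HLA-C, XAF1 and NLRC5 did not pass the filter of 1 CPM in 3 libraries and have no value there.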
